A study of Mus musculus with 6 samples.

Results

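SAP is the small SH2-domain adaptor encoded by the X-linked gene Sh2d1a. The SLAM family receptors are immunoglobulin-like surface proteins, many of which it serves. The genes described here are Sh2d1a, 6 genes of the SLAM family (Slamf1, Slamf6, Slamf7, Ly9, Cd84 and Cd48) and Fyn, which encodes the tyrosine kinase recruited by SAP. They were chosen by name, as every probe set whose platform symbol is one of the 8, and each had exactly 1 probe set, giving 8 genes of 19938 measured and 8 probe sets of 23410 tested. RNA came from CD4+ CD44+ T cells, which have met antigen, sorted from draining lymph nodes of immunised male Bcl6_RFP reporter mice of 8 to 10 weeks, in which a red fluorescent protein reports Bcl6. Immunisation was with keyhole limpet haemocyanin (KLH), a foreign protein, in complete Freund's adjuvant (CFA). The 3 groups had 2 arrays each, described by the submitters as biological replicates, and were sorted as Cxcr5+Bcl6+, Cxcr5+Bcl6- and Cxcr5-Bcl6- cells. All 3 groups carried the reporter. The sources used here do not say whether mice were pooled or how closely the reporter follows Bcl6 protein, and p-values measure the spread between these arrays only.

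SLAM family receptors mostly bind a copy of themselves on the neighbouring cell, so T and B cells that carry the same receptor can engage each other. In many of them the cytoplasmic tail holds tyrosine motifs that bind SAP, which brings in Fyn, or SH2-domain phosphatases. T cells that lack SAP form short contacts with B cells and support germinal centres poorly, and Slamf6 is known as one of the receptors whose signals are inhibitory when SAP is missing. Cd48 differs from the others: its protein has no cytoplasmic tail and is the ligand of CD2 and of CD244.

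The gene set divided into rises, falls and small differences. In Cxcr5+Bcl6+ cells, compared with Cxcr5-Bcl6- cells, Sh2d1a, Slamf6 and Cd84 were higher, by 5.08-fold, 2.25-fold and 1.37-fold. Slamf7, Slamf1 and Cd48 were lower, by 3.79-fold, 2.51-fold and 1.42-fold. Ly9 and Fyn did not pass. Thus 3 of 8 genes rose, 3 fell and 2 did not pass at an adjusted p under 0.05, where 35.3% of all probe sets were called, 17.6% as higher and 17.7% as lower. The tests were limma's, with Benjamini-Hochberg adjustment over all 23410 probe sets. The median absolute difference was 0.84 (log2) over the 8 genes and 0.18 over all probe sets. The 2 groups' arrays did not overlap in 7 of the 8 genes, all but Ly9, against 62.6% of all probe sets.

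Between Cxcr5+Bcl6- and Cxcr5-Bcl6- cells, 4 of 8 genes passed, against 11.1% of all probe sets (5.22% higher and 5.93% lower). Sh2d1a and Slamf6 rose, by 2.62-fold and 1.95-fold, and Slamf1 and Slamf7 fell, by 1.35-fold and 1.30-fold. These falls passed in the full fit but not when either Cxcr5+Bcl6- array was left out, where 2 of 8 genes were called. The arrays of these groups did not overlap in 5 of the 8 genes, against 50.1% of all probe sets. Between Cxcr5+Bcl6+ and Cxcr5+Bcl6- cells, 4 of 8 genes passed as well, against 26.4% of all probe sets (13.4% higher and 13.0% lower). Sh2d1a rose by 1.94-fold, while Slamf7 fell by 2.92-fold, Slamf1 by 1.86-fold and Cd48 by 1.42-fold. No overlap was seen in 7 of the 8 genes, against 65.8% of all probe sets. The 3 comparisons share arrays and are not independent. In a bulk sample, fewer cells of a type and less RNA per cell cannot be told apart.

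**Figure D1:**
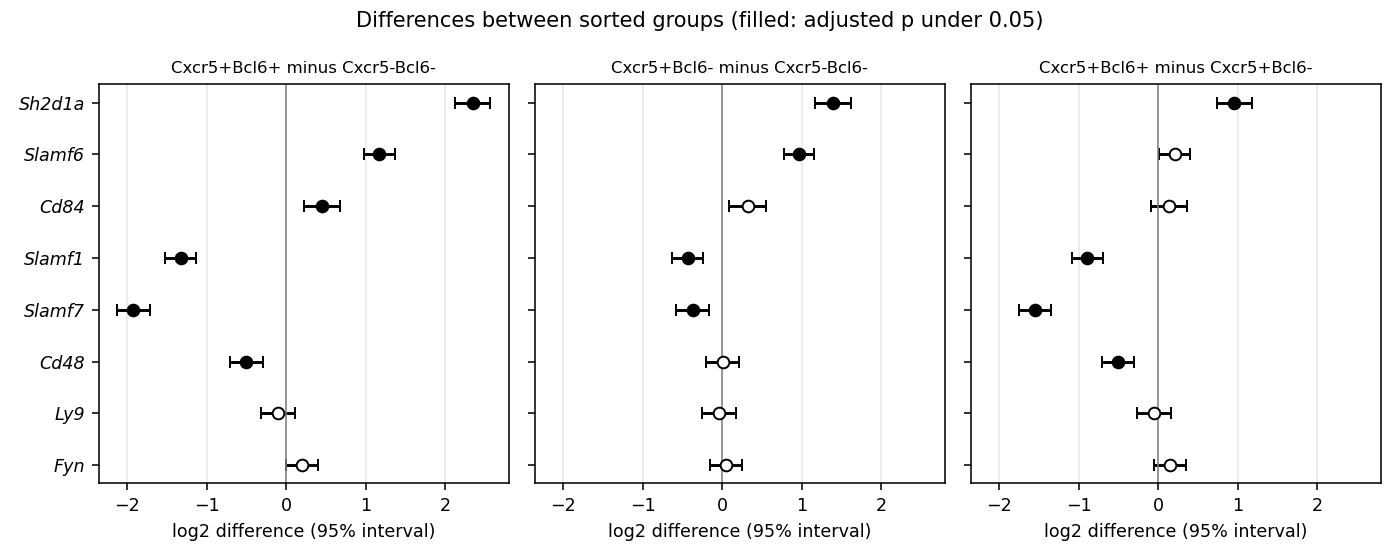
Log2 differences of the 8 genes in the 3 comparisons, with 95% intervals from the limma fit (x axis, log2 units) and genes down the page. Filled points had an adjusted p under 0.05. Sh2d1a lies furthest to the right and Slamf7 furthest to the left in the first panel (2.35 and -1.92), whereas Ly9 stays near 0 in all 3 panels.

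Sh2d1a, the adaptor gene (probe set 10599411), had log2 levels of 12.23 and 12.24 in Cxcr5+Bcl6+ cells, 11.31 and 11.26 in Cxcr5+Bcl6- cells, and 10.02 and 9.76 in Cxcr5-Bcl6- cells. The groups stood in a clear order with no overlap, and the widest spread was in Cxcr5-Bcl6- cells (SD 0.18, n = 2). The log2 difference between Cxcr5+Bcl6+ and Cxcr5-Bcl6- cells was 2.35 (SE 0.10, limma adjusted p = 2.18e-08). Cxcr5+Bcl6- cells exceeded Cxcr5-Bcl6- cells by 1.39 (SE 0.10, limma adjusted p = 8.87e-06). Both neighbouring steps passed, the step between Cxcr5+Bcl6+ and Cxcr5+Bcl6- cells being 0.95 (SE 0.10, limma adjusted p = 3.92e-05). On the log2 scale 59.3% of the whole difference was already present in Cxcr5+Bcl6- cells.

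Fyn, the kinase gene (probe set 10362596), moved far less than the adaptor gene. Its log2 levels were 12.74 and 12.77 in Cxcr5+Bcl6+ cells, 12.65 and 12.57 in Cxcr5+Bcl6- cells, and 12.64 and 12.48 in Cxcr5-Bcl6- cells. The Cxcr5+Bcl6+ arrays were the highest, and the other groups overlapped. The difference between Cxcr5+Bcl6+ and Cxcr5-Bcl6- cells was 0.20, with a 95% interval from -0.0087 to 0.40 (limma adjusted p = 0.132), so changes of up to 1.32-fold upward lie within it. It passed after renewed quantile normalisation (0.27, limma adjusted p = 0.0278) and with an intensity trend (limma adjusted p = 0.0281). It was 0.12 without Cxcr5-Bcl6- replicate 2 (limma adjusted p = 0.429) and 0.15 with arrays centred on the median (limma adjusted p = 0.298). The other Fyn differences were 0.046 for Cxcr5+Bcl6- minus Cxcr5-Bcl6- (limma adjusted p = 0.876) and 0.15 for Cxcr5+Bcl6+ minus Cxcr5+Bcl6- (limma adjusted p = 0.271).

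**Figure D2:**
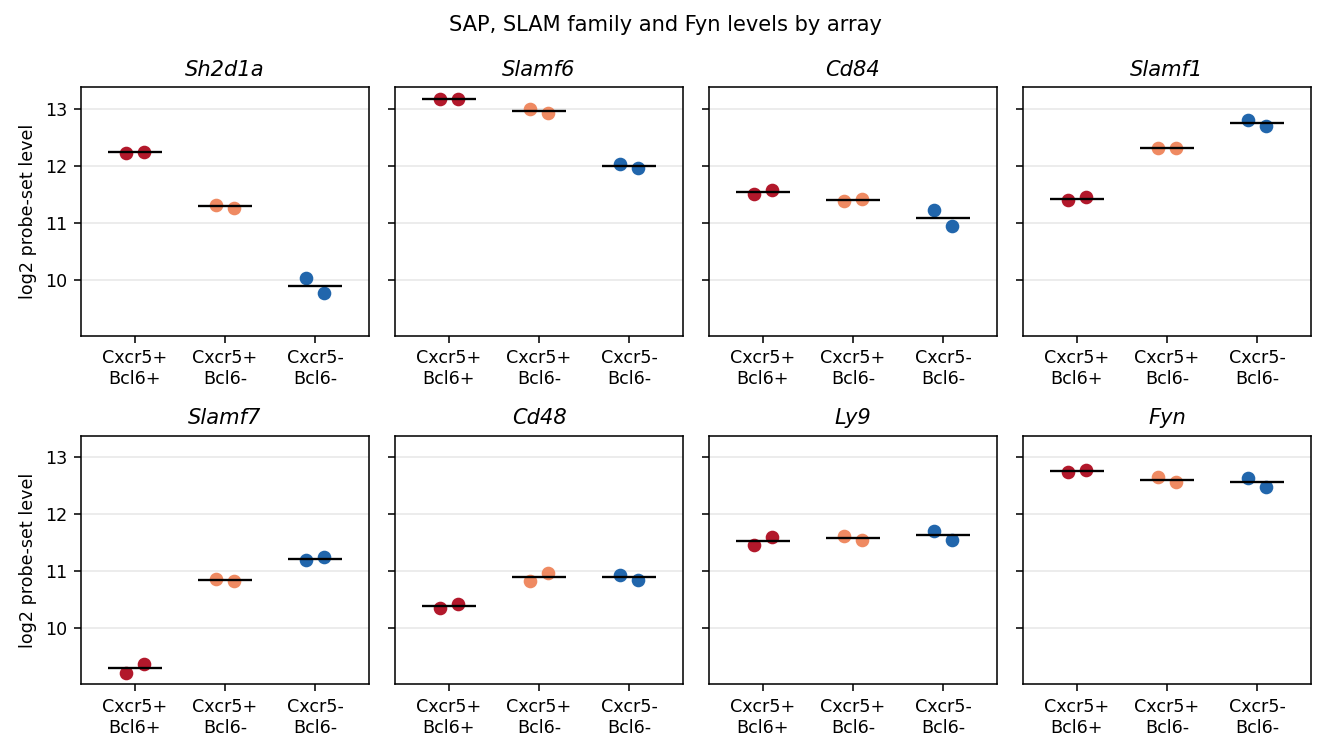
Log2 probe-set level (y axis, shared by all panels) on each array of the 3 sorted groups, 1 point per array, with the group mean as a line. Sh2d1a falls stepwise from left to right, Slamf1 and Slamf7 climb, and the Ly9 points overlap between groups. Levels of different genes come from different probe sets and are not compared with each other.

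Slamf6, which encodes the homophilic receptor Ly108, differed mainly between the Cxcr5+ groups and Cxcr5-Bcl6- cells. Its probe set (10351691) read 13.16 and 13.18 in Cxcr5+Bcl6+ cells, 13.00 and 12.93 in Cxcr5+Bcl6- cells, and 12.03 and 11.97 in Cxcr5-Bcl6- cells. Both Cxcr5+ groups lay well above the third. Cxcr5+Bcl6- cells were higher than Cxcr5-Bcl6- cells by 0.97 (SE 0.087, limma adjusted p = 3.48e-05), which was 82.5% of the whole log2 difference of 1.17 (Cxcr5+Bcl6+ minus Cxcr5-Bcl6-, limma adjusted p = 1.25e-06). The remaining 0.20 between Cxcr5+Bcl6+ and Cxcr5+Bcl6- cells (95% interval 0.014 to 0.40) did not pass over all probe sets (limma adjusted p = 0.109), although it did with an intensity trend (limma adjusted p = 0.0154).

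Cd84, the gene of another homophilic receptor of T and B cells, showed the smallest of the 3 rises. Log2 levels were 11.50 and 11.58 in Cxcr5+Bcl6+ cells, 11.39 and 11.42 in Cxcr5+Bcl6- cells, and 11.22 and 10.95 in Cxcr5-Bcl6- cells (probe set 10351679). No group overlapped another, but the Cxcr5-Bcl6- arrays spread more widely (SD 0.20) than the Cxcr5+Bcl6+ arrays (SD 0.054). The Cxcr5+Bcl6+ minus Cxcr5-Bcl6- difference of 0.45 passed (SE 0.10, limma adjusted p = 0.00506). Cxcr5+Bcl6- cells were 0.32 above Cxcr5-Bcl6- cells, which missed the threshold (limma adjusted p = 0.0791), though it passed without Cxcr5-Bcl6- replicate 1 (0.46, limma adjusted p = 0.019) and after renewed quantile normalisation (limma adjusted p = 0.0325). Without Cxcr5-Bcl6- replicate 2 the same difference was 0.18 (limma adjusted p = 0.396). The Cxcr5+ groups differed by 0.13, with a 95% interval from -0.095 to 0.36 (limma adjusted p = 0.386).

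Slamf1, which encodes the homophilic receptor CD150, ran in the opposite direction. Its probe set (10351667) read 11.39 and 11.45 in Cxcr5+Bcl6+ cells, 12.32 and 12.31 in Cxcr5+Bcl6- cells, and 12.80 and 12.69 in Cxcr5-Bcl6- cells. The order of the groups was the reverse of that of Sh2d1a, again with no overlap. Relative to Cxcr5-Bcl6- cells, the level was lower by 1.33 in Cxcr5+Bcl6+ cells, a log2 difference of -1.33 (SE 0.089, limma adjusted p = 5.4e-07), and the difference for Cxcr5+Bcl6- cells was -0.43 (SE 0.089, limma adjusted p = 0.00825). The larger step was the one between the Cxcr5+ groups (-0.89, SE 0.089, limma adjusted p = 2.31e-05). The -0.43 did not pass without Cxcr5+Bcl6- replicate 1 (limma adjusted p = 0.0725) or replicate 2 (limma adjusted p = 0.0771).

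Slamf7, whose product CRACC is best known from NK cells and plasma cells, had the largest fall of the 8 genes. Log2 levels were 9.21 and 9.37 in Cxcr5+Bcl6+ cells, 10.86 and 10.82 in Cxcr5+Bcl6- cells, and 11.19 and 11.24 in Cxcr5-Bcl6- cells (probe set 10360173). The Cxcr5+Bcl6+ arrays stood far below the other 4. The difference from Cxcr5-Bcl6- cells was -1.92 (SE 0.092, limma adjusted p = 4.43e-08), and 19.5% of it, on the log2 scale, was present in Cxcr5+Bcl6- cells. That smaller difference, -0.37 (SE 0.092, limma adjusted p = 0.0222), did not pass without either Cxcr5+Bcl6- replicate (limma adjusted p = 0.122 and 0.186), without Cxcr5-Bcl6- replicate 2 (0.0821) or over all rows (0.0844). Cxcr5+Bcl6+ cells differed from Cxcr5+Bcl6- cells by -1.55 (SE 0.092, limma adjusted p = 5.08e-07).

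Cd48, the tail-less ligand gene, was lower in Cxcr5+Bcl6+ cells than in either other group. Its levels were 10.35 and 10.43 in Cxcr5+Bcl6+ cells, 10.82 and 10.97 in Cxcr5+Bcl6- cells, and 10.93 and 10.85 in Cxcr5-Bcl6- cells (probe set 10351658, log2). The Bcl6- groups overlapped each other. The level in Cxcr5+Bcl6+ cells minus that in Cxcr5-Bcl6- cells was -0.50, and minus that in Cxcr5+Bcl6- cells it was -0.51 (SE 0.093 each, limma adjusted p = 0.00122 and 0.00196). The Bcl6- groups differed by 0.0052, with a 95% interval from -0.20 to 0.21 (limma adjusted p = 0.99). Cd2, which encodes the T cell receptor for CD48 and was picked out after its values were seen, had a Cxcr5+Bcl6+ minus Cxcr5-Bcl6- difference of -0.33 (limma adjusted p = 0.0120), and its difference between the Cxcr5+ groups was -0.22 (limma adjusted p = 0.0844).

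Ly9, the gene of the homophilic receptor CD229, showed no difference that passed. Log2 levels were 11.46 and 11.60 in Cxcr5+Bcl6+ cells, 11.61 and 11.55 in Cxcr5+Bcl6- cells, and 11.71 and 11.55 in Cxcr5-Bcl6- cells (probe set 10360158). All 3 groups overlapped. The difference between Cxcr5+Bcl6+ and Cxcr5-Bcl6- cells was -0.10, with a 95% interval from -0.31 to 0.11, that is, 0.806 to 1.08 of the Cxcr5-Bcl6- level (limma adjusted p = 0.474). The other Ly9 differences were -0.046 and -0.054 (limma adjusted p = 0.883 and 0.724).

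The position of Cxcr5+Bcl6- cells between the other groups was tested with a contrast added after the levels had been seen, their mean minus the midpoint of the Cxcr5+Bcl6+ and Cxcr5-Bcl6- means. It called 8.24% of all probe sets (4.16% above and 4.08% below the midpoint) and 2 of the 8 genes, both above. Slamf6 lay above the midpoint by 0.38 (SE 0.075, limma adjusted p = 0.00827), nearer to the Cxcr5+Bcl6+ level. Slamf7 also lay above it, by 0.59 (SE 0.080, limma adjusted p = 0.000636), which for a falling gene is nearer to the Cxcr5-Bcl6- level. Sh2d1a (0.22), Slamf1 (0.23) and Cd48 (0.26) did not pass (limma adjusted p = 0.179, 0.102 and 0.0823). The Slamf6 departure did not pass without either Cxcr5+Bcl6- replicate (limma adjusted p = 0.171 and 0.0674), while that of Slamf7 passed under every alternative run.

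**Figure D3:**
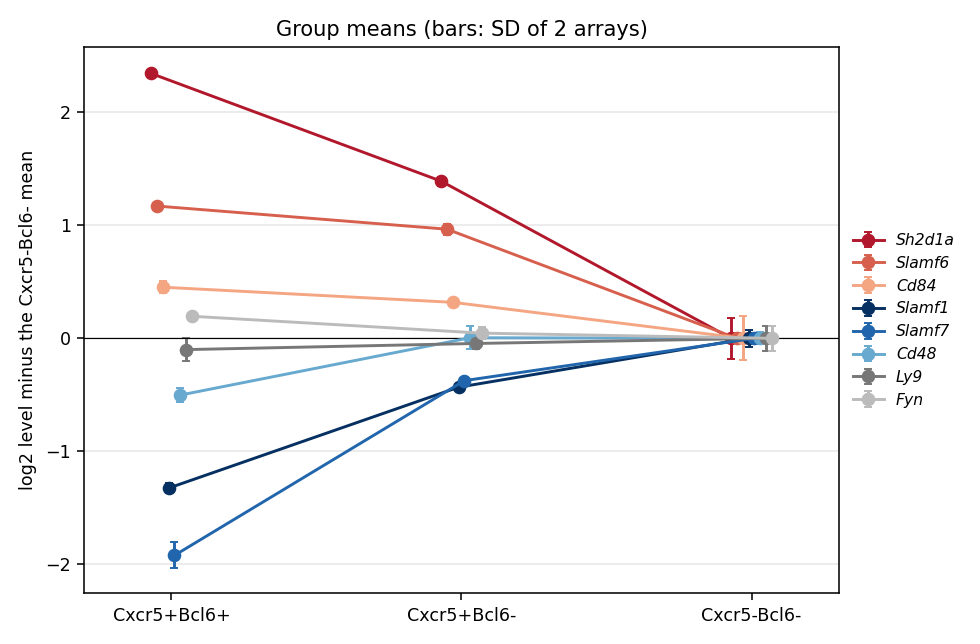
Group means of the 8 genes as log2 level minus the Cxcr5-Bcl6- mean of the same gene (y axis), with bars for the SD of 2 arrays. Slamf6 is nearly flat between the Cxcr5+ groups (1.17 and 0.97), whereas Slamf7 drops steeply between them (-1.92 and -0.37).

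The SLAM genes lie side by side on chromosome 1 in a single cluster. In 1 of the 3 comparisons, Cxcr5+Bcl6+ against Cxcr5-Bcl6- cells, the directions followed the gene order of the GRCm38.p6 annotation. Slamf7, Cd48 and Slamf1, 3 neighbours, were the genes that fell in Cxcr5+Bcl6+ relative to Cxcr5-Bcl6- cells, and Cd84 and Slamf6, next to each other at one end, were those that rose. Ly9 and Cd244a, at the other end, did not pass. Among the 16 flanking genes with a probe set, 8 on each side, 2 rose and 1 fell in this comparison. It called 35.3% of all probe sets. The 7 closest on the Cd244a side and the 5 closest on the Slamf6 side did not pass. The ones that passed were Dcaf8 (0.62), which encodes an adaptor of a ubiquitin ligase, Pea15a (0.42), a regulator of MAP kinase signalling and apoptosis, and Pfdn2 (-0.73), a subunit of the chaperone prefoldin (limma adjusted p = 0.000262, 0.00332 and 0.000138). Between Cxcr5+Bcl6- and Cxcr5-Bcl6- cells none of the 16 passed in limma (2 at an unadjusted p under 0.05), against 11.1% of all probe sets. The differences of the 16 ran from -0.32 to 0.30. Of the cluster genes named as falling or rising, Cd48 (0.0052) and Cd84 (0.32) did not pass between these Bcl6- groups. Cd84 (0.13) and Slamf6 (0.20) did not pass between the Cxcr5+ groups.

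**Figure D4:**
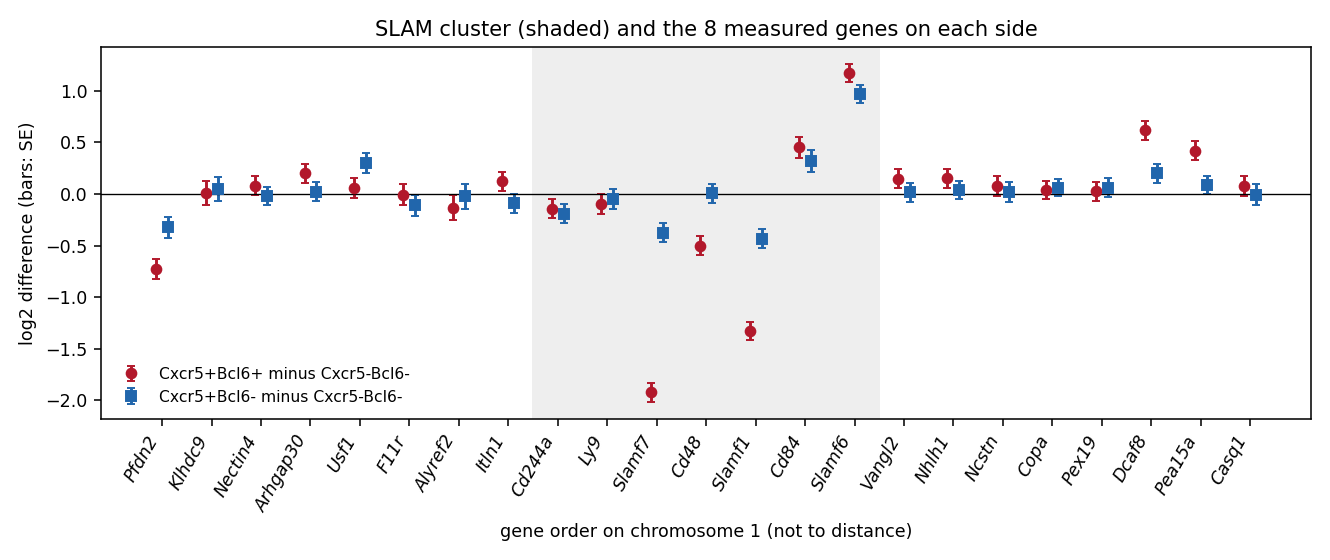
Log2 differences against Cxcr5-Bcl6- cells (y axis, bars for the SE) of the SLAM genes of chromosome 1 (shaded) and the 8 measured genes on each side, in gene order and not to distance. Slamf7 (-1.92) and Slamf6 (1.17) are the lowest and the highest Cxcr5+Bcl6+ points shown.

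The promoters of 4 cluster genes are shown: Slamf7 and Slamf1, which fell in Cxcr5+Bcl6+ relative to Cxcr5-Bcl6- cells, and Cd84 and Slamf6, which rose. Cd48, which lies between Slamf7 and Slamf1, also fell, and its sequence is not printed. RefSeq promoters were found for 6 of the 8 genes, and the 250 bases before the start are given, on the gene's own strand and in build GRCm38.p6. Capitals mark E boxes (CANNTG, the 6-letter site type of E proteins) and AP-1 type sites (TGANTCA, 7 letters), searched on both strands. They lie at chr1:171649000-171649249 (minus strand) for Slamf7, chr1:171766882-171767131 (plus) for Slamf1, chr1:171839447-171839696 (plus) for Cd84 and chr1:171917212-171917461 (plus) for Slamf6.
Slamf7: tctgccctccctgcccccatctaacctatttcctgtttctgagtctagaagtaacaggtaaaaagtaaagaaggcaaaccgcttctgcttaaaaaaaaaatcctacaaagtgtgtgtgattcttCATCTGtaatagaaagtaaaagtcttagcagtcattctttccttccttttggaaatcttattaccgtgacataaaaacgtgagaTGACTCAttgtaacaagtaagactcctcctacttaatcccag
Slamf1: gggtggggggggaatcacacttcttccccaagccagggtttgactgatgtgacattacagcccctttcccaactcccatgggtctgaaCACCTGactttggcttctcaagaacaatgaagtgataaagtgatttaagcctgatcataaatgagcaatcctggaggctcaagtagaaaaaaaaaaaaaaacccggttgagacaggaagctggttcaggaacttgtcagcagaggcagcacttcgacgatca
Cd84: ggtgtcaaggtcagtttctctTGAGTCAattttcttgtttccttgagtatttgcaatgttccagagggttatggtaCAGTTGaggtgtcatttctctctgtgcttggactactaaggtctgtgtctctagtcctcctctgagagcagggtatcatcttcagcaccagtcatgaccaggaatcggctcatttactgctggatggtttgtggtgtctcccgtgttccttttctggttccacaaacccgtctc
Slamf6: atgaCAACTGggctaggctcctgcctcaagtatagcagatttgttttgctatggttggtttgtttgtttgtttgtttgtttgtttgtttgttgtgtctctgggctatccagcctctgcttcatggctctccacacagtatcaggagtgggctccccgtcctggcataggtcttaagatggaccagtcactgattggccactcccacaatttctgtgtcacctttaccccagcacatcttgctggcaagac
Each of these windows held 1 E box, at 126, 162, 174 and 246 bases before the start, and so did that of Cd48. Rising and falling genes were thus alike in this letter match, and the Fyn window held none. An E box was present in 66.1% of 27018 promoter windows of the same length. An AP-1 type site was found in Slamf7 (42 bases before the start) and in Cd84 (229 bases), against 6.87% of all windows. The motif TTCNNNGAA, the type bound by STAT factors and related to the Bcl6 site, was in none of the 6 windows and in 7.18% of all. The T-box type letters GGTGTGA was in the Cd48 window and in 3.31% of all windows, the TCF/LEF letters CTTTGAT were in the Fyn window and in 3.23% of all, and neither TGTGGTT (Runx) nor CCGGAAG (Ets) was in any of the 6. The sites do not overlap, except that the Cd48 E box and T-box letters share a base. A match describes the letters only.

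SLAM family genes outside the chosen ones gave little signal. Cd244a, the receptor for CD48 on NK and cytotoxic cells, and Slamf8 and Slamf9, which are known from myeloid cells, averaged 7.09, 7.15 and 7.40 over the 6 arrays. As a gauge of dim signal, 1390 probe sets for odorant and pheromone receptors (trace amine receptors included) had 95th percentiles of 7.86, 7.39 and 7.47 in Cxcr5+Bcl6+, Cxcr5+Bcl6- and Cxcr5-Bcl6- cells. Every group mean of these 3 genes lay under its group's percentile except that of Slamf9 in Cxcr5-Bcl6- cells, at 7.62. Of the 3, only Slamf9 passed in any comparison, with a log2 difference of -0.52 for Cxcr5+Bcl6- minus Cxcr5-Bcl6- (limma adjusted p = 0.0371). Sh2d1b1 and Sh2d1b2, which encode the SAP relatives EAT-2 and ERT, averaged 5.19 and 4.92. Sh2d1b1 passed for Cxcr5+Bcl6+ minus Cxcr5-Bcl6- (-0.36, limma adjusted p = 0.0388), but its means of 5.03 and 5.39 lay under the median of the odorant and pheromone receptors in both groups (6.07 and 5.80), so neither level stood above dim signal. These 2 genes are close copies, so signal may be shared between them. Sh2d2a, the gene of the T cell adaptor TSAd, did not pass in any of the 3 comparisons (-0.19 for Cxcr5+Bcl6+ minus Cxcr5-Bcl6-, limma adjusted p = 0.132).

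SH2-domain phosphatases, which compete with SAP for SLAM tails, moved apart from each other. In Cxcr5+Bcl6+ relative to Cxcr5-Bcl6- cells, 2 of 4 rose and 1 fell, where 35.3% of all probe sets were called (median 0.24, against 0.040 over all probe sets). Ptpn6, the gene of the inhibitory phosphatase SHP-1, averaged 10.39 in Cxcr5+Bcl6+ cells, 10.62 in Cxcr5+Bcl6- cells and 11.04 in Cxcr5-Bcl6- cells. Its difference from Cxcr5-Bcl6- cells was -0.65 in Cxcr5+Bcl6+ cells (limma adjusted p = 0.000188) and -0.42 in Cxcr5+Bcl6- cells (limma adjusted p = 0.013). Ptpn11, which encodes SHP-2, rose by 0.53 in Cxcr5+Bcl6+ relative to Cxcr5-Bcl6- cells (limma adjusted p = 0.000589), and Inppl1, which encodes the lipid phosphatase SHIP-2, by 0.61 (limma adjusted p = 0.000454). Inpp5d, the gene of SHIP-1, differed by -0.058 (limma adjusted p = 0.664). In the same comparison, Ptpn6 therefore ran opposite to Sh2d1a, whereas Ptpn11 ran with it.

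Of the other Src family kinases, 3 of 4 measured genes fell in Cxcr5+Bcl6+ relative to Cxcr5-Bcl6- cells and none rose (median -0.59), where 17.7% of all probe sets were called lower. Fgr (-0.99) and Yes1 (-0.91) fell most (limma adjusted p = 3.84e-06 and 8.59e-06), and Src differed by -0.27 (limma adjusted p = 0.0372). Their means were 7.03 (Fgr) and 6.74 (Yes1) in Cxcr5+Bcl6+ cells, under the 95th percentile of the odorant and pheromone receptors, and 8.01 and 7.65 in Cxcr5-Bcl6- cells, above it. Blk, a B cell kinase, did not pass (0.12, limma adjusted p = 0.317).

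Of the regulators of these kinases, 7 of 10 did not pass for Cxcr5+Bcl6+ against Cxcr5-Bcl6- cells, while 1 rose and 2 fell (median 0.091), a called share close to the 35.3% of all probe sets. The rise was Unc119 (0.63), which encodes an activator of Lck and Fyn, and the falls were Pag1 (-0.49), the adaptor that holds the inhibitory kinase Csk at the membrane, and Dok2 (-0.42), an adaptor that restrains T cell receptor signals (limma adjusted p = 0.000194, 0.00442 and 0.0062). Cblb, which encodes a ubiquitin ligase that limits activation, was lowest in Cxcr5+Bcl6- cells, differing by -0.34 from Cxcr5-Bcl6- cells (limma adjusted p = 0.0248), and the Cxcr5+Bcl6+ minus Cxcr5+Bcl6- difference was 0.30 (limma adjusted p = 0.023).

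Effectors downstream of SAP and Fyn had 8 rises and 1 fall among 19 measured genes for Cxcr5+Bcl6+ against Cxcr5-Bcl6- cells, with 10 not passing (median 0.18). The called share, 9 of 19, stands beside 35.3% of all probe sets. Skap1 and Fyb, which encode 2 partner adaptors that link T cell receptor signals to integrins, rose by 0.90 and 0.88 (limma adjusted p = 1.01e-05 and 1.49e-05). Rasa1, a brake on Ras, rose by 0.69, and Dgka, which encodes a diacylglycerol kinase that SAP is known to inhibit, by 0.60 (limma adjusted p = 8.49e-05 and 0.000183). Between Cxcr5+Bcl6- and Cxcr5-Bcl6- cells, 3 rose and 1 fell, with Skap1 (0.58) and Dgka (0.32) among the rises (limma adjusted p = 0.00145 and 0.0332). These 3 rises and 1 fall stand beside 11.1% of all probe sets called (5.22% higher and 5.93% lower). Between the Cxcr5+ groups 5 of the 19 rose and none fell. There, 26.4% of all probe sets were called, 13.4% as higher and 13.0% as lower.

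Among 23 other surface and adhesion genes of T and B cell contacts, 4 rose, 10 fell and 9 did not pass for Cxcr5+Bcl6+ against Cxcr5-Bcl6- cells (median -0.061), where 17.6% of all probe sets were called higher and 17.7% lower. The largest measured difference was that of Cd226, the gene of the costimulatory receptor DNAM-1, at -2.22 (limma adjusted p = 3.78e-08). Its Cxcr5+Bcl6+ mean of 7.71 lay under the 95th percentile of the odorant and pheromone receptors in that group (7.86), so the size of this difference is uncertain. Its ligand gene Pvr differed by -0.85, Alcam, whose product binds CD6, by -1.28, and Cd40lg by -0.77 (limma adjusted p = 1.65e-05, 1.72e-06 and 8.24e-05). Cd226 had its larger step between the Cxcr5+ groups (-1.64, limma adjusted p = 6.44e-07), as did Slamf7, while most of the Pvr difference was present in Cxcr5+Bcl6- cells (-0.73, limma adjusted p = 0.000273). Among the 23, Cxcr5+Bcl6- minus Cxcr5-Bcl6- gave 1 rise and 2 falls, and the Cxcr5+ groups gave 1 rise and 6 falls. The shares of all probe sets called in these comparisons were 11.1% and 26.4%, in that order.

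**Figure D5:**
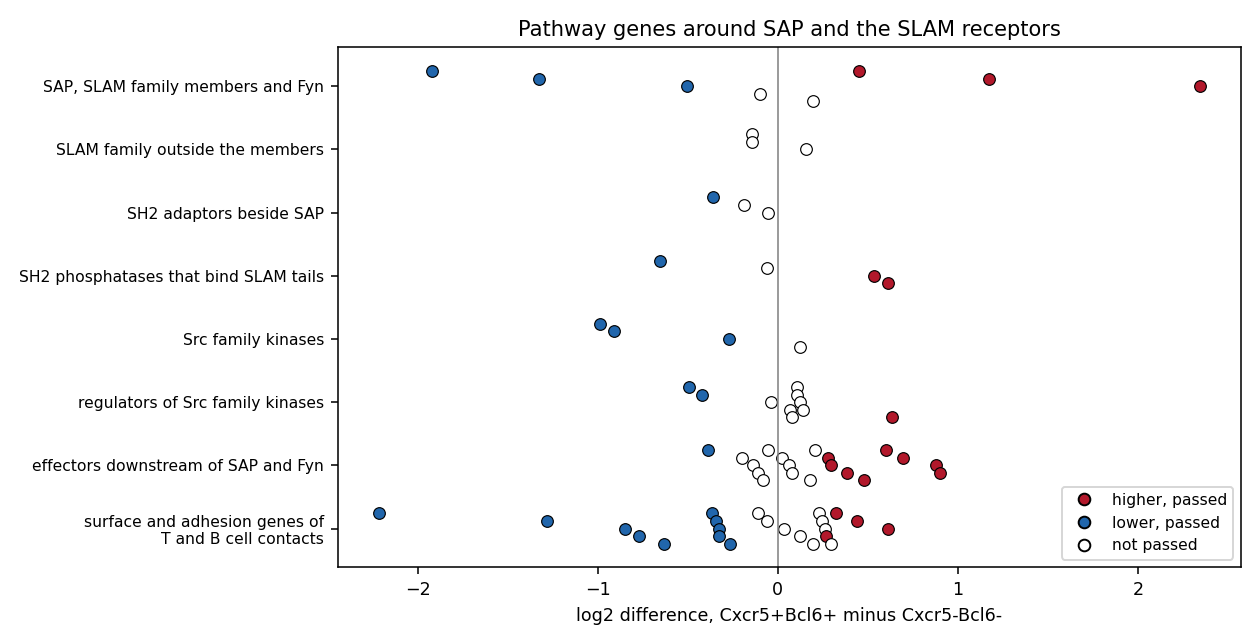
Log2 differences of Cxcr5+Bcl6+ minus Cxcr5-Bcl6- cells (x axis) for the 8 genes and for 7 lists of pathway genes, 1 point per gene, spread vertically for legibility. Red and blue points passed as higher and lower, white points did not pass. Sh2d1a (2.35) is the furthest right and Cd226 (-2.22) the furthest left.

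Genes with the most similar profile were ranked among 18381 genes by Euclidean distance over the 6 arrays, after each gene was centred on its mean. Provisional symbols were left out. So were longer symbols that start with a capital letter and a digit, which can be those of curated genes. Sh2d1a was closest to Slc9a9 (distance 0.18, log2), an endosomal sodium-proton exchanger gene, then to the cell cycle phosphatase gene Cdc25b (0.34) and to Smpdl3a (0.39). Slamf6 was closest to Tmem71 (0.14), Ston2 (0.15) and Syt11 (0.16). Slamf7 had the nearest partner of all, Cd274 (0.061), which encodes the inhibitory ligand PD-L1, followed by the spermidine synthase gene Srm (0.11) and by Myc (0.13). Slamf1 was closest to Nol11 (0.072), a nucleolar factor gene of ribosome production, Naa25 (0.079) and the RNA methyltransferase gene Nsun2 (0.087). For Cd84 the nearest were Tbl1xr1 (0.089), Xrn1 (0.10) and Shld2 (0.11), and for Cd48 they were Sf3a1 (0.081), Nfil3 (0.084) and Mitd1 (0.090). Distances of genes that move little are small by construction, and with 6 arrays in 3 groups many profiles are alike.

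Markers were checked for the sort and for cells that could accompany it. Cxcr5 was higher in both Cxcr5+ groups than in Cxcr5-Bcl6- cells (3.52 and 2.47), and the Bcl6 level of Cxcr5+Bcl6+ cells exceeded that of Cxcr5+Bcl6- cells (0.94, limma adjusted p = 1.4e-05). The mean log2 level of 11 measured T cell genes was 12.52 to 12.59 in Cxcr5+Bcl6+, 12.49 to 12.51 in Cxcr5+Bcl6- and 12.39 to 12.40 in Cxcr5-Bcl6- arrays. For Cxcr5+Bcl6+ against Cxcr5-Bcl6- cells, 5 of the 11 were up and 2 down. All marker counts that follow are for this comparison, where 17.6% of all probe sets were called higher and 17.7% lower. B cells also express Slamf6, Cd84, Ly9 and Cd48, and 13 measured B cell genes had mean levels of 8.15 to 8.22 in Cxcr5+Bcl6+, 7.82 to 7.89 in Cxcr5+Bcl6- and 7.47 to 7.54 in Cxcr5-Bcl6- arrays, with 8 up and 3 down for Cxcr5+Bcl6+ against Cxcr5-Bcl6- cells. Plasmacytoid dendritic cell genes moved the other way, with 9 of 9 down and mean levels of 7.88 to 8.01, 8.43 to 8.45 and 10.09 to 10.14 in the same order of groups. For myeloid and dendritic cell genes, 10 of 19 were down and 1 up (7.52 in both Cxcr5+Bcl6+ arrays, 7.68 to 7.74 in Cxcr5+Bcl6- and 8.41 to 8.44 in Cxcr5-Bcl6- arrays). NK cell genes had 5 of 11 down and 1 up (6.78 to 6.82, 6.97 to 7.05 and 7.17 to 7.27), CD8 T cell genes 4 of 5 down (7.96 in both, 8.86 to 8.87 and 9.35 to 9.45) and plasma cell genes 3 of 6 down (8.00 to 8.10, 8.58 to 8.61 and 8.73 to 8.76), in the same order of groups. NKT and innate-like T cell genes had 1 up and 1 down of 4 (8.44 to 8.46, 8.58 to 8.62 and 8.17 to 8.29). Of the plasma cell genes, Prdm1, Xbp1 and Jchain fell, while Sdc1, Mzb1 and Tnfrsf17 did not pass. Prdm1 averaged 7.65, 9.98 and 9.78 in the same order of groups. All called genes of the plasmacytoid dendritic, CD8 T and plasma cell lists, and most of the myeloid and NK cell lists, were lower in Cxcr5+Bcl6+ cells. Slamf7, Slamf1 and Cd48 shared this direction, while Sh2d1a, Slamf6 and Cd84 went the other way. Array levels have no true 0, and the part of accompanying cells of any of these types in the SLAM gene differences was not tested.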

How the data were processed

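Per the labels, total RNA from the 6 sorted samples was fragmented and labelled with biotin using an Affymetrix terminal labelling kit. The deposited values are on a log2 scale, 1 per probe set and array. Per the submitters' processing notes, GCOS 1.1, RMA and Affymetrix Expression Console were used, in an order and with settings not given in the sources used here. Dim and very bright probe sets respond less than linearly, so folds may be understated, and no detection calls were used. For arrays, their number limits the precision.

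Of 35556 rows, 21789 carried 1 gene symbol, 1621 several and 12146 were unnamed here. Symbols were updated through Entrez identifiers (GRCm38.p6 annotation) for 21698. All 23410 named probe sets were fitted with limma 3.58.1 in R 4.3.3 (lmFit on group means over 6 arrays, eBayes defaults, two-sided, Benjamini-Hochberg, adjusted p under 0.05, prior SD 0.0989 with 8.25 degrees of freedom), and the fit was tested on simulated data. The 95% intervals are not adjusted. In lists, a gene with several probe sets is represented by the one with the highest mean. The genes described and the lists were chosen with earlier results of these data known. Named list genes are up to 4 per list with the smallest p, all of the SLAM family, the flanking genes that passed, and the 3 most similar genes per called gene. Same-numbered arrays were not paired: their deviations from group means correlated at -0.23, -0.046 and 0.26. Alternatives were other variance options, normalisations, filters, samples in the fit, the replicate number as a block and leaving out each array.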

Additional observations from a re-analysis of the deposited data

How the results depend on the processing

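Over the alternatives run, the number of the 8 genes called was 6 or 7 for Cxcr5+Bcl6+ minus Cxcr5-Bcl6- and 4 or 5 for Cxcr5+Bcl6+ minus Cxcr5+Bcl6-. For Cxcr5+Bcl6- minus Cxcr5-Bcl6- it was 3 to 5, and 2 to 5 when each array was left out in turn. For the midpoint contrast it was 4 with an intensity trend and 1 to 3 when each array was left out. Sh2d1a kept its direction and call in all 3 comparisons under every alternative, as did Slamf1, Slamf7 and Cd48 wherever Cxcr5+Bcl6+ cells were compared, and Slamf6 and Cd84 between Cxcr5+Bcl6+ and Cxcr5-Bcl6- cells. With the replicate block the counts were 6, 4, 4 and 2, and no call among the 8 genes changed. Differences near 0 changed sign. For Cxcr5+Bcl6- minus Cxcr5-Bcl6-, Ly9 was 0.033 without Cxcr5-Bcl6- replicate 1, in a range from -0.12. In the same comparison, Cd48 reached -0.033 and -0.067, in a range up to 0.078, and Fyn -0.034, in a range up to 0.13. Between the Cxcr5+ groups, Ly9 was 0.015 without Cxcr5+Bcl6+ replicate 1, in a range from -0.13. The Ly9 midpoint contrast was -0.011 after quantile normalisation and -0.035 to 0.044 without single arrays. Over all probe sets, calls for Cxcr5+Bcl6- minus Cxcr5-Bcl6- numbered 2610, against 1579 over all rows and 1317 and 1401 without Cxcr5+Bcl6- replicate 1 or 2. Without those arrays, calls between the Cxcr5+ groups numbered 3617 and 3820, against 6185, and midpoint calls 994 and 1013, against 1928. The lone array of a group is then assumed to vary like the others. The cause was not tested.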
